A study of Mus musculus with 24 samples.

Results

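Collagen genes were described in the fat of C57BL/6 mice aged 2 months, from counts of total RNA. The members were all gene symbols that begin with Col and a digit and contain the letter a, which picked 45 of the 24421 symbols counted. Of these, 44 encode alpha chains of collagens, and the remaining symbol, Col4a3bp, encodes a ceramide transfer protein that is named after a collagen it binds and was kept apart. Mice were either wild type (WT) or bore 1 of 2 substitutions, named Y665F and Y665H, of the same tyrosine in STAT5B, a transcription factor that acts downstream of growth hormone and cytokine receptors. Phenylalanine takes its place in Y665F, and histidine in Y665H. With 3 genotypes, both sexes and 4 libraries for each combination, there were 6 groups and 24 libraries. The labels name no fat depot, do not say whether the mutant mice carried the substitution on 1 or both alleles, and do not say whether a replicate is a separate animal. P-values therefore measure the spread between these libraries.

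Collagens are secreted proteins whose alpha chains wind around each other into a stiff helix. Fibrillar collagens such as types I, III and V form the cables that carry tension in connective tissue. Type IV collagen forms the sheet-like network of basement membranes, and in fat every adipocyte is wrapped in such a membrane. Type VI collagen forms beaded filaments between that membrane and the fibres and is abundant around adipocytes. Fibril-associated collagens sit on the surface of fibres, types XV and XVIII carry sugar chains and lie in or beside basement membranes, and membrane-spanning collagens such as types XVII and XXIII are held in the cell surface.

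The stretches just upstream of 4 collagen genes are shown because these were the chains whose RNA differed between the 2 mutants in females. The last stretch is shown because it is the whole gap between Col4a4 and Col4a3, which are transcribed away from each other and which were among the 4 chains with the smallest p between WT males and WT females. All are from RefSeq on GRCm38.p6 and run 5′ to 3′ on the strand of the named gene, and the Col4a3 gene reads the gap on the opposite strand. Capitals mark either the 9-base motif TTCNNNGAA, the core of sites that STAT5 proteins can bind, or GC boxes (GGGCGG, or CCGCCC on the other strand).
Col18a1, chr10:77166549-77166780, minus strand: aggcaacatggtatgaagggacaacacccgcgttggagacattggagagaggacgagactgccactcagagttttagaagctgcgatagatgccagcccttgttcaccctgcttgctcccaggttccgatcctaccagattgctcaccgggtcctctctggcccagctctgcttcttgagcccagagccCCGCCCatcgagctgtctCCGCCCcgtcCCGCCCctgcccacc
Col8a2, chr4:126286544-126286792, plus strand: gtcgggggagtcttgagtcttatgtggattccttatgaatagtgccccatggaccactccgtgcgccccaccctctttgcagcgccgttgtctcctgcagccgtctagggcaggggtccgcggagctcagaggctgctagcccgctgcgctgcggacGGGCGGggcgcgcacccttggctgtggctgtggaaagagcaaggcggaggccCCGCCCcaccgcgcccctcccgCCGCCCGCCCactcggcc
Col10a1, chr10:34389731-34389980, plus strand: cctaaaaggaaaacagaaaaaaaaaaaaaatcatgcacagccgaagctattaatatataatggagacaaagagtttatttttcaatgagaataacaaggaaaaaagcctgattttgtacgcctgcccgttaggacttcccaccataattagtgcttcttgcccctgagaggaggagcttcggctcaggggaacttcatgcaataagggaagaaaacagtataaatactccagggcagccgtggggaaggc
Col6a5, chr9:105960644-105960893, minus strand: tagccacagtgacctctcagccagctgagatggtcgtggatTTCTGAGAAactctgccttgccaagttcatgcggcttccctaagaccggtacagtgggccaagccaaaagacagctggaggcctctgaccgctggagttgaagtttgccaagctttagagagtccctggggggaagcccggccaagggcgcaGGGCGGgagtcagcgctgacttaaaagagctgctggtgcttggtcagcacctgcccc
Col4a4 to Col4a3, chr1:82586850-82586920, minus strand: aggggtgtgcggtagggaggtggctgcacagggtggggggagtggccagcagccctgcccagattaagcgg

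The gene bodies lie at chr10:77052178-77166548 for Col18a1, chr4:126286793-126314330 for Col8a2, chr10:34389981-34397085 for Col10a1, chr9:105856078-105960643 for Col6a5, chr1:82448423-82586849 for Col4a4 and chr1:82586921-82722059 for Col4a3 (GENCODE M21 on GRCm38). Of these 5 stretches, the one before Col6a5 held TTCNNNGAA, at position -209 counted from the gene's start. The one before Col18a1 held 3 GC boxes and the one before Col8a2 held 4, of which 2 overlap. Neither motif was found before Col10a1 or in the gap between Col4a4 and Col4a3. RefSeq windows from 250 bases before to 50 bases after the start were matched for 35 of the 44 chains. TTCNNNGAA was present for 2 of these 35 genes (5.71%), Col6a5 and Col28a1. Counted by window this was 2 of 38 collagen windows (5.26%), against 8.30% of all 32851 windows of the same length. GC boxes were present for 22 of the 35 genes (62.9%), and by window for 23 of 38 (60.5%), against 35.7% of all windows. The motifs were searched as letters on both strands, and a match describes the sequence only. Col1a1, Col2a1, Col4a3, Col5a2, Col9a3, Col12a1, Col14a1, Col22a1 and Col26a1 had no window.

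Depth ran from 21.0 to 41.3 M gene counts per library (M for 1000000), and the median was 34.6 M. A level is the count scaled to 1000000 gene counts (CPM), and where genes are compared with each other it is given as CPM per kilobase (RPKM), using the annotated transcript with the longest coding sequence. A count of 0 allows up to 0.0726 to 0.143 CPM, which covers counting error only. All 10 adipocyte markers were above 1 CPM in every library, with summed levels of 8111 to 28613 CPM. Markers of other tissues differed between libraries, and in bulk RNA fewer cells of a type and less RNA per cell cannot be told apart. The 8 epididymis markers summed to 9553, 2400 and 848 CPM in WT males 2, 3 and 4 but to 0.345 CPM in WT male 1, to between 0.810 and 1152 CPM in mutant males, and to at most 2.23 CPM in females. The 10 skeletal muscle markers summed to 609 and 1034 CPM in WT females 1 and 4 and to 1826 and 539 CPM in Y665H females 3 and 4, and to at most 235 CPM in the other libraries. The 7 smooth muscle and pericyte markers were highest in Y665F female 3 (14570 CPM) and Y665F male 4 (6872 CPM) and lay between 680 and 4260 CPM elsewhere.

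**Figure D1:**
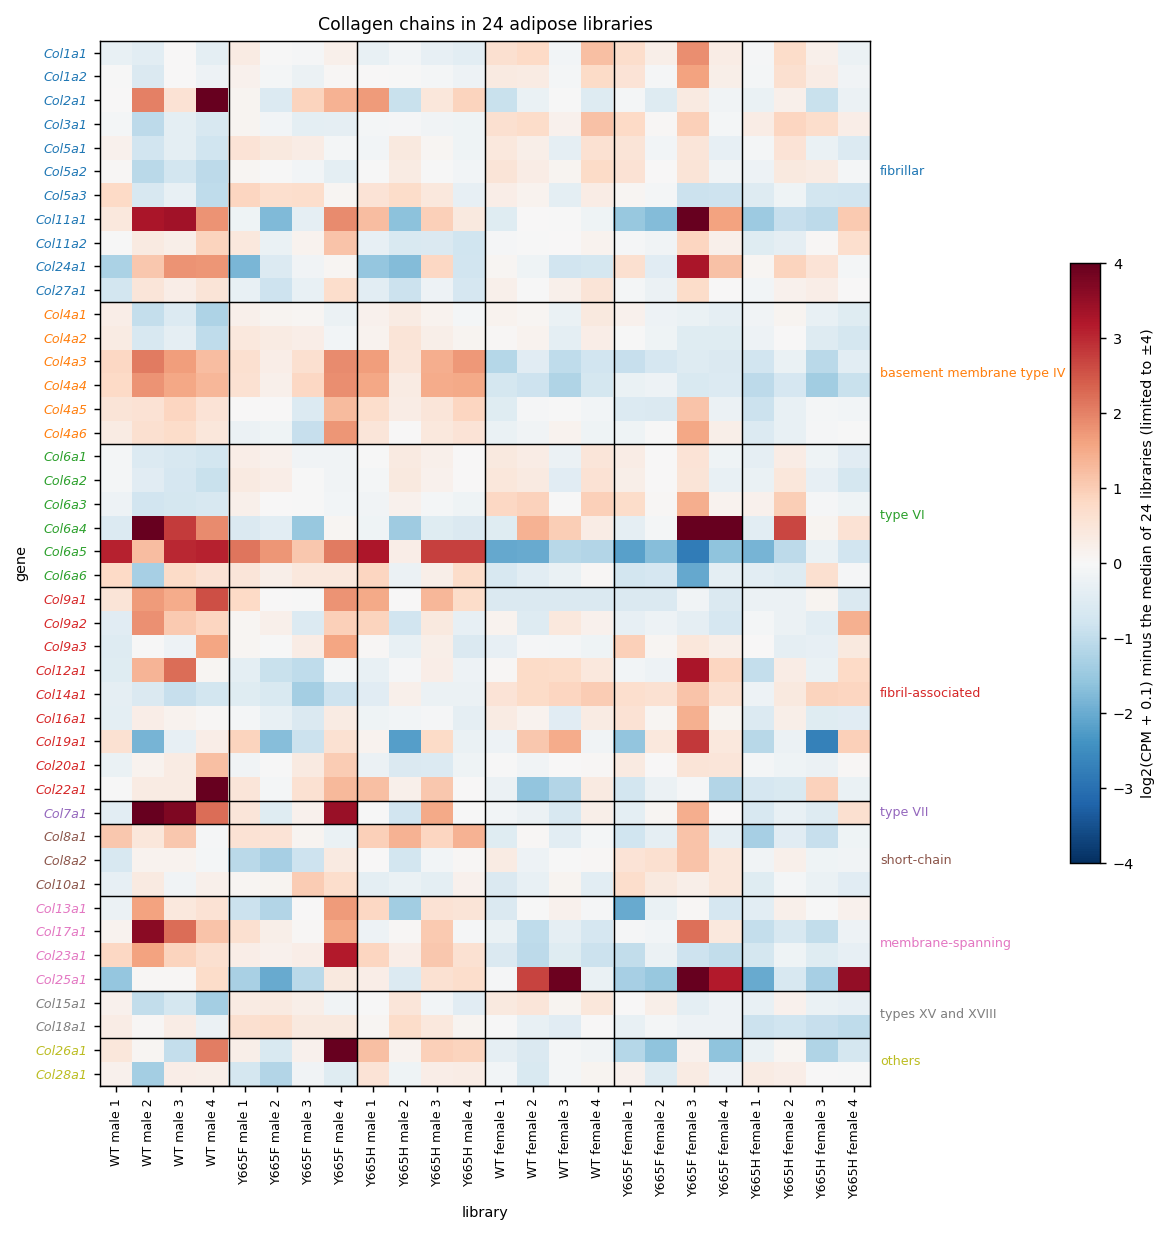
Each cell is a collagen gene (rows, grouped by class) in 1 library (columns, grouped by genotype and sex), coloured by log2(CPM + 0.1) minus that gene's median over the 24 libraries and limited to ±4. Col6a5, Col4a3 and Col4a4 are above their medians in most male libraries, and dark single cells mark chains such as Col6a4 that are high in 1 or a few libraries.

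Collagen RNA made up 1.02 to 2.79% of gene counts. In males the mean share was 1.29 ± 0.351% for WT, 1.74 ± 0.192% for Y665F and 1.69 ± 0.172% for Y665H, and in females it was 2.11 ± 0.477% for WT, 2.01 ± 0.594% for Y665F and 1.69 ± 0.368% for Y665H (SD, n = 4 each). The ranges of the groups overlapped within each sex. Within the collagen counts, the fibrillar class held a mean of 44.9 to 56.5% per group, type IV 19.5 to 28.8%, type VI 12.4 to 15.0%, and types XV and XVIII 7.28 to 10.4%. The type IV share lay between 28.5 and 29.0% in Y665H males and between 12.3 and 23.0% in Y665F females.

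Per length, the highest chain was Col3a1, the single chain of type III collagen, at a mean of 606 RPKM over the 24 libraries. It was followed by the type IV chain Col4a1 at 358 RPKM, the type I chains Col1a1 and Col1a2 at 345 RPKM each, Col4a2 at 245 RPKM and Col15a1 at 226 RPKM. The type VI chains Col6a1 and Col6a2 stood at 193 and 188 RPKM. At the other end, Col9a1 and Col9a2, chains of the cartilage collagen type IX, were under 1 CPM in every library. In all, 31 chains reached 1 CPM in every library, and 11 did so in some. For 15 chains the highest library was over 5 times the median library.

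Several pairs of chains had a log2 ratio that varied less between libraries of a group than either chain did. Col4a1 and Col4a2, which are built into the same type IV helix, each had a within-group SD of 0.33 on the log2 scale, but the SD of their log2 ratio was 0.09. For Col6a1 and Col6a2 the SDs were 0.28 and 0.36, and that of the ratio was 0.11. For Col1a1 and Col1a2, which form type I collagen and lie on different chromosomes, they were 0.43 and 0.39, and 0.14 for the ratio. For Col6a1 and Col6a3, which also assemble, the SD of the ratio was 0.21. The same held for chains of different helices. Col3a1 and Col5a2, neighbours on chromosome 1, had SDs of 0.36 and 0.33 and a ratio with an SD of 0.18. Col1a1 and Col3a1 had SDs of 0.43 and 0.36 and a ratio with an SD of 0.26. Both chains of each ratio share the library and its depth. The type VI genes Col6a4 and Col6a5, neighbours on chromosome 9, had SDs of 1.93 and 0.81 and a ratio with an SD of 2.23. The genes of the type IV pairs lie head to head on chromosomes 8 (Col4a1 and Col4a2), 1 (Col4a3 and Col4a4) and X (Col4a5 and Col4a6), and the SD of the log2 ratio was 0.23 for the pair on chromosome 1 and 0.20 for that on X.

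The proportions of chains were read as count ratios, which do not depend on library size. Per length, the male ratio of Col4a2 to Col4a1 was 0.769 ± 0.0448 for WT, 0.762 ± 0.0286 for Y665F and 0.723 ± 0.0525 for Y665H, and the female ratio was 0.645 ± 0.0405 for WT, 0.616 ± 0.0520 for Y665F and 0.603 ± 0.0293 for Y665H (SD, n = 4). WT males (0.712 to 0.822) did not overlap WT females (0.616 to 0.704). Col6a3, the longest of the common type VI chains, stood at 0.276 ± 0.0239 of Col6a1 in WT males and 0.398 ± 0.0447 in WT females, also without overlap. The per-length ratio of Col3a1 to Col1a1 was 1.94 to 2.21 in Y665H males against 1.26 to 1.74 in Y665F males, and 2.02 to 2.64 in Y665H females against 1.00 to 1.98 in Y665F females, without overlap in either sex. In WT it was 1.20 to 2.15 in males and 1.76 to 2.22 in females, which overlaps both mutants. Per length, Col6a2 to Col6a1 overlapped between the WT sexes, at 0.872 to 1.03 in males and 0.846 to 1.04 in females. It also overlapped between the mutants in each sex. Col1a2 to Col1a1 overlapped between WT males (0.961 to 1.30) and WT females (0.770 to 1.10). Between the mutants this ratio was apart in males (1.14 to 1.35 in Y665H, 0.949 to 1.03 in Y665F) and overlapped in females. These ratios are a description and were not tested.

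The comparison of the 2 mutants in females asks whether the 2 substitutions of the same residue leave collagen RNA alike. A filter on low counts left 40 of the 44 chains to be tested. Of these, 4 were called (edgeR adjusted p under 0.05 over all genes), 3 lower and 1 higher in Y665H. This is 10.0% of the chains, below the 17.4% of all genes called in this contrast (8.59% lower and 8.77% higher). The median log2 fold change of the chains was -0.27, against -0.03 over all genes tested, and 27 of the 40 were below 0. Under scaling by library totals, which moved the median of all genes to -0.18, 4 chains were called and all 4 were lower, with Col4a4 in place of Col6a5. That scaling called 3207 of all 15493 genes, 2407 lower and 800 higher. DESeq2 called 7 chains (17.5%, against 25.2% of all genes). All libraries of the groups were apart for 5 chains, each lower in Y665H, which is 12.5% against 28.1% of all genes. Cell type markers moved in the same contrast. Of 7 macrophage markers 5 were called lower in Y665H (sums of 544 to 798 CPM against 1112 to 1725 CPM in Y665F), as were 5 of 8 T and B cell markers (31.8 to 58.0 against 91.4 to 139 CPM). Of 10 skeletal muscle markers 6 were called higher (23.0 to 1826 against 31.0 to 176 CPM). The part of these cells in the collagen values was not tested, except for the muscle-rich libraries, which were left out as given below.

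Col18a1 encodes the type XVIII chain of vascular and epithelial basement membranes, whose cut-off end is known as endostatin. It read 252, 291, 264 and 266 CPM in Y665F females and 168, 177, 162 and 152 CPM in Y665H females. All 4 Y665H female libraries were below every other library of the series. The log2 fold change was -0.56 ± 0.0914 (SE, with an adjusted p by edgeR of 0.00583), and the call held when each library was left out in turn (adjusted p of 0.00583 to 0.0223).

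Col8a2, a short-chain collagen of the type VIII network best known from the cornea and vessel walls, read 29.4, 31.2, 44.4 and 27.3 CPM in Y665F females and 18.1, 23.2, 17.9 and 18.2 CPM in Y665H females. The highest value belonged to Y665F female 3, the library highest in smooth muscle markers, and the groups did not overlap. The log2 fold change was -0.62 ± 0.152 (SE, with an adjusted p by edgeR of 0.0258), and it was -0.47 (adjusted p = 0.0222) without that library. Col10a1, the short-chain collagen of growth-plate cartilage, was near the bottom of the measured range, at 3.77, 2.96, 2.68 and 3.12 CPM in Y665F females and 1.58, 2.14, 1.87 and 1.62 CPM in Y665H females. Its groups were apart as well (log2 ratio -0.66 ± 0.173 SE, adjusted p = 0.0336 by edgeR).

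Col6a5, a type VI chain that can take the place of Col6a3, was the chain called higher in Y665H females. It read 10.4, 14.5, 6.63 and 15.3 CPM in Y665F females and 12.8, 22.4, 39.3 and 27.3 CPM in Y665H females, so 1 Y665H library lay within the Y665F range. The log2 fold change was 1.25 ± 0.359 (SE, with an adjusted p by edgeR of 0.0465). When 1 of the 8 libraries was left out, Col8a2 was no longer called in 4 fits, Col10a1 in 6 and Col6a5 in 7, and scaling by library totals also ended the call of Col6a5 (adjusted p = 0.0590). The calls of all 3 ended in the fit over 24 libraries (adjusted p of 0.120, 0.0696 and 0.0986 for Col8a2, Col10a1 and Col6a5 by edgeR) and with the replicate block (0.0577, 0.0948 and 0.109), and that of Col10a1 with no filter on low counts (0.0535). Without the 4 female libraries highest in skeletal muscle markers, an alternative chosen after the data were seen, Col18a1 was the chain still called (log2 fold change -0.46, adjusted p = 0.0485).

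**Figure D2:**
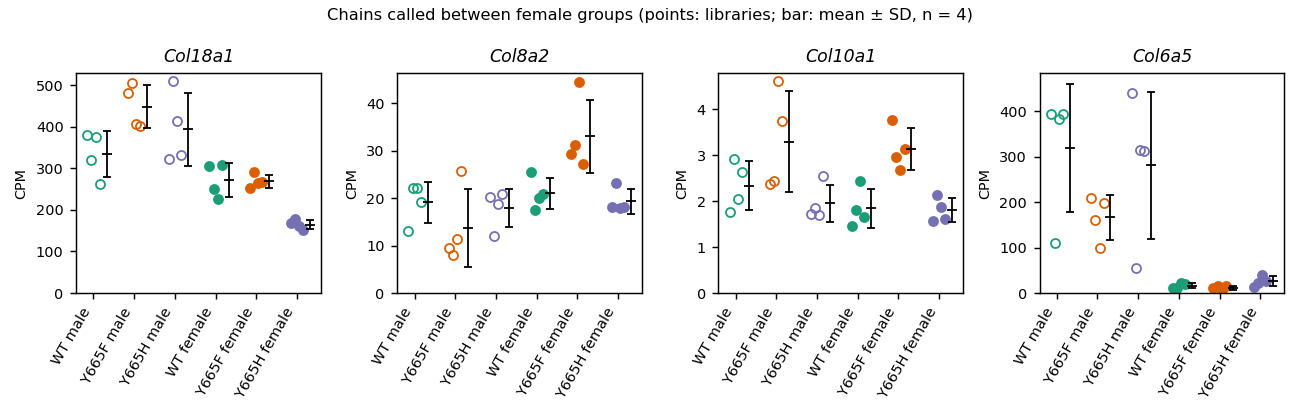
Points are the CPM of single libraries in the 6 groups (open: males, filled: females), and bars are mean ± SD of 4 libraries, for the 4 chains called between Y665H and Y665F females. Y665H females lie between 152 and 177 CPM for Col18a1, below all other libraries, and female Col6a5 lies between 6.63 and 39.3 CPM, below all male libraries.

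Y665H females against WT females gave 1 called chain of 40 (2.50%), while 3.34% of all genes were called. It was again Col18a1, at 306, 250, 226 and 309 CPM in WT females. The WT and Y665H groups did not overlap, and the log2 fold change was -0.71 ± 0.118 (SE, with an adjusted p by edgeR of 0.0236). The call was lost when WT female 1 or 4 or Y665H female 1, 3 or 4 was left out (adjusted p of 0.0529 to 0.0935 in those fits). WT females 1 and 4, the higher WT libraries for Col18a1, are also the WT libraries highest in skeletal muscle markers. Y665H females 3 and 4, the highest of their group in those markers, were the lower Y665H libraries for Col18a1. Without the 4 libraries high in those markers, WT females 2 and 3 (250 and 226 CPM) were still above Y665H females 1 and 2 (168 and 177 CPM), with a log2 fold change of -0.42 and an adjusted p of 0.429. The part of muscle RNA in the result was not tested beyond this. The median log2 fold change of the chains was -0.14 against -0.0046 over all genes, and 28 of 40 were below 0. DESeq2 called 3 chains in this contrast (7.50%, against 11.5% of all genes). Col18a1 was the chain without overlap between these groups (2.50%, against 13.3% of all genes).

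Col15a1, the relative of Col18a1 that links basement membranes to the underlying fibres, was the chain with the smallest p between Y665F and WT females. Among females it read 951, 1327, 978 and 943 CPM for Y665H, 1182, 1373, 893 and 1026 CPM for Y665F, and 1549, 1638, 1281 and 1617 CPM for WT. One library of each mutant reached into the WT range. The log2 fold change in Y665F was -0.57 ± 0.174 (SE), and neither difference passed the threshold (edgeR adjusted p = 0.0992 in Y665F and 0.0719 in Y665H).

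No chain of 40 was called between Y665F and WT females, where 3.33% of all genes were. By the unadjusted p under 0.05, 7 chains (17.5%) passed, against 26.3% of all genes. DESeq2 called 5 chains in this contrast (12.5%, against 13.0% of all genes). After Col15a1, the smallest p were those of Col8a2, at 25.6, 17.6, 20.0 and 20.9 CPM in WT females, with a log2 fold change of 0.52 ± 0.160 (SE, with an adjusted p by edgeR of 0.101), and of Col10a1, at 1.46, 1.82, 2.45 and 1.65 CPM in WT females, with 0.63 ± 0.207 (SE, with an adjusted p by edgeR of 0.114). For both, every Y665F library was above every WT library. Col4a4, Col9a3 and Col17a1 were also apart, each higher in Y665F. These 5 chains are 12.5% of those tested, against 22.9% of all genes. Since Y665F females enter both female contrasts of Col8a2 and Col10a1, those contrasts share libraries.

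In males no chain was called in any contrast between genotypes. Of all genes, edgeR called 0% for Y665F against WT, 0% for Y665H against WT and 1.03% between the mutants. By the unadjusted p under 0.05, 10 of 41 chains passed for Y665F against WT (24.4%, against 16.9% of all genes), 11 of 43 for Y665H against WT (25.6%, against 11.4%) and 7 of 40 between the mutants (17.5%, against 18.0%). DESeq2 called 3, 1 and 3 chains (7.32%, 2.33% and 7.50%, against 6.38%, 0.390% and 6.74% of all genes). Without WT male 1, edgeR called 3 of 43 chains for Y665F against WT (6.98%, against 3.43% of all genes) and 0 of 44 for Y665H against WT (against 0.00597% of all genes). The median log2 fold change of the chains was -0.01, -0.09 and -0.09 in these contrasts, against -0.01, -0.05 and -0.02 over all genes. The epididymis markers of the WT male libraries, given above, ran from 0.345 to 9553 CPM, and the part of that tissue in these contrasts was not tested.

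Col6a3 had the smallest p for Y665F against WT males. Among males it read 635, 558, 553 and 516 CPM for Y665F, 502, 629, 526 and 489 CPM for Y665H, and 486, 330, 342 and 357 CPM for WT. Both mutant groups lay above all WT libraries. The log2 fold change in Y665F was 0.65 ± 0.182 (SE, with an adjusted p by edgeR of 0.207), and without WT male 1 Col6a3 was called (adjusted p = 0.0420). Col6a4 followed with a log2 fold change of -4.71 ± 1.34 (SE, with an adjusted p by edgeR of 0.207) and Col12a1, a fibril-associated chain, with -1.65 ± 0.564 (SE, with an adjusted p by edgeR of 0.250). Col6a4 read 1.38, 136, 15.0 and 7.90 CPM in WT males and 0.667 to 2.21 CPM in Y665F males, and Col12a1 28.5, 102, 187 and 42.4 CPM in WT males and 19.6 to 38.2 CPM in Y665F males. In both genes WT male 1, which had almost no epididymis marker, read within the range of the mutant males. Besides Col6a3, Col18a1 was apart between these groups (263 to 380 CPM in WT males, 402 to 505 CPM in Y665F males). These 2 chains are 4.88% of those tested, against 8.85% of all genes.

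For Y665H against WT males the smallest p were those of Col11a2, Col6a4 and Col7a1, all with an edgeR adjusted p of 0.402. Col11a2, a minor fibrillar chain, read 1.497, 1.95, 1.78 and 2.86 CPM in WT males and 1.19, 0.951, 0.967 and 0.822 CPM in Y665H males, without overlap (log2 ratio -1.02 ± 0.266 SE). Col7a1, the chain of the anchoring fibrils under epithelia, read 1.87, 59.5, 35.2 and 12.4 CPM in WT males and 2.54, 1.44, 7.41 and 2.54 CPM in Y665H males (log2 ratio -2.95 ± 0.963 SE). Col6a4 read 0.720 to 1.85 CPM in Y665H males (log2 ratio -4.88 ± 1.32 SE). Col6a1 and Col6a3 were apart in the other direction, with Col6a1 at 736, 533, 501 and 471 CPM in WT males and 764, 989, 896 and 787 CPM in Y665H males. The 3 chains without overlap are 6.98% of those tested, against 3.60% of all genes.

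Between the mutants in males, Col8a1, the partner of Col8a2 in type VIII collagen, read 25.7, 34.3, 24.1 and 34.4 CPM in Y665H and 19.5, 19.0, 14.1 and 10.8 CPM in Y665F. The groups were apart, with a log2 fold change of 0.85 ± 0.229 (SE, with an adjusted p by edgeR of 0.119). Col11a2 was lower in every Y665H library than in any Y665F library (1.23 to 3.40 CPM in Y665F; log2 ratio -1.12 ± 0.313 SE, adjusted p = 0.127 by edgeR). Col1a1 read 1327, 1517, 1316 and 1242 CPM in Y665H males and 2074, 1622, 1594 and 1907 CPM in Y665F males (log2 ratio -0.45 ± 0.132 SE, adjusted p = 0.136 by edgeR). Its partner Col1a2 read 1621, 1564, 1517 and 1390 CPM in Y665H males and 1814, 1500, 1364 and 1662 CPM in Y665F males, which overlap. In all, 5 chains were apart here (12.5%), as were 12.5% of all genes.

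**Figure D3:**
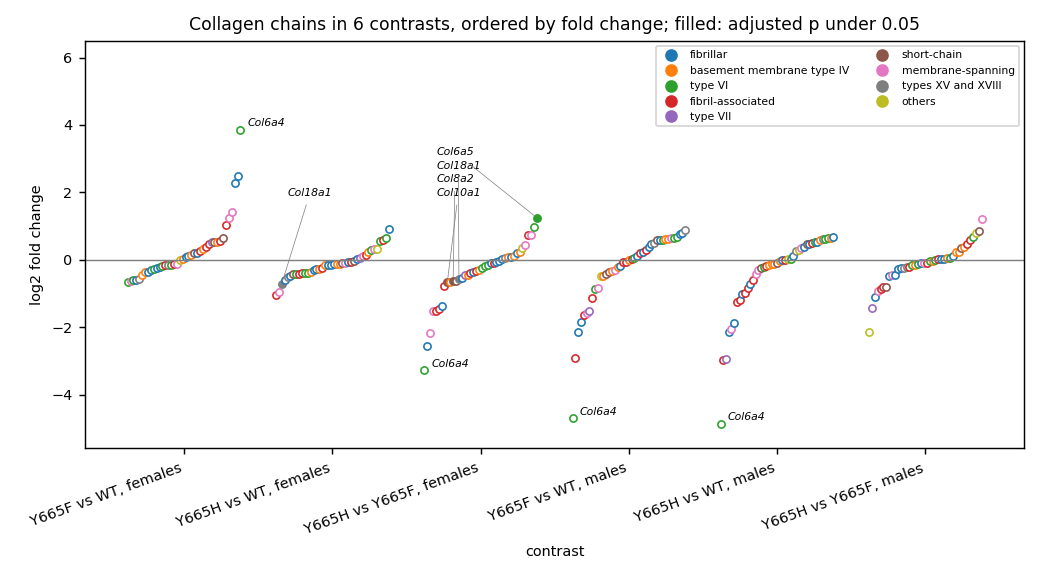
Each point is the log2 fold change of a collagen chain in 1 of the 6 contrasts between genotypes, ordered by size within the contrast and coloured by class, with filled points for an edgeR adjusted p under 0.05. Filled points appear in 2 contrasts of females, 1 for Y665H against WT and 4 for Y665H against Y665F, while the largest fold changes belong to Col6a4 and are open.

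The sexes of WT mice were compared to show how collagen RNA differs without a mutation. Because the labels name no fat depot, sex cannot be told apart from depot or dissection in this contrast. Of 40 chains tested, 15 were called (37.5%), against 13.1% of all genes, with 9 higher and 6 lower in males (7.15% and 5.95% of all genes). DESeq2 called 22 (55.0%, against 24.7% of all genes). Chains without overlap numbered 8 higher and 4 lower in males (30.0%, against 25.2% of all genes). The higher chains were the type IV chains Col4a3, Col4a4, Col4a5 and Col4a6, the type VI chain Col6a5, the anchoring fibril chain Col7a1, the membrane-spanning chains Col17a1 and Col23a1, and Col11a1. The lower ones were the fibrillar chains Col1a1, Col3a1 and Col5a2, the type VI chains Col6a1 and Col6a3, and the fibril-associated Col14a1. Of all 11 fibroblast and progenitor markers 7 were called lower in WT males, with summed levels of 1061 to 1965 CPM against 1897 to 2924 CPM in WT females, and of 10 skeletal muscle markers 9 were called lower, as were 4 of 7 smooth muscle and pericyte markers (981 to 1616 against 1858 to 4260 CPM). In the other direction, 3 of 8 epithelium markers were called higher in WT males and all 8 had a log2 fold change above 0 (sums of 38.9 to 1340 against 16.0 to 110 CPM). The part of these cells in the collagen result was not tested.

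Col4a4 and Col4a3 encode chains of the minor type IV network known from kidney and other epithelial basement membranes. Col4a4 read 30.2, 60.4, 50.8 and 43.6 CPM in WT males and 10.6, 9.70, 7.47 and 10.7 CPM in WT females, with a log2 fold change of 2.11 ± 0.219 (SE, with an adjusted p by edgeR of 0.00299). Col4a3 read 14.2, 34.0, 25.3 and 18.6 CPM in WT males and 3.53, 5.76, 3.90 and 4.65 CPM in WT females, with 2.21 ± 0.300 (SE, with an adjusted p by edgeR of 0.00720). The sexes did not overlap for either gene. In the mutants, which the WT contrast did not use, the ranges were also apart: Col4a4 lay between 20.0 and 63.3 CPM in the 8 mutant males and between 6.59 and 15.0 CPM in the 8 mutant females, and Col4a3 between 9.47 and 29.6 CPM and between 3.70 and 6.64 CPM.

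Col6a5 had the largest fold change of the called chains. It read 395, 109, 383 and 395 CPM in WT males and 11.3, 11.5, 21.5 and 20.7 CPM in WT females, with a log2 fold change of 4.15 ± 0.472 (SE, with an adjusted p by edgeR of 0.00381). It was also apart in the mutants, at 55.8 to 442 CPM in males and 6.63 to 39.3 CPM in females. Within WT males the library richest in epididymis markers, WT male 2, was the lowest for Col6a5. WT male 1, with almost no such marker, read 395 CPM, and the part of that tissue in Col6a5 was not tested. Col14a1, which regulates how fibres thicken, read 135, 116, 91.8 and 105 CPM in WT males and 253, 297, 315 and 349 CPM in WT females (log2 ratio -1.58 ± 0.170 SE, adjusted p = 0.00337 by edgeR). In the mutants, Col14a1 was apart between the sexes in Y665F and overlapped in Y665H. It lay between 67.5 and 125 CPM in Y665F males, 127 and 198 CPM in Y665H males, 267 and 383 CPM in Y665F females, and 152 and 322 CPM in Y665H females. Col4a4, Col4a3, Col6a5, Col14a1 and Col23a1 were the 5 chains still called without WT males 2 and 3, the libraries highest in epididymis markers. In that fit 569 of 16239 genes were called. No chain was called without the 4 female libraries highest in skeletal muscle markers, a setting that leaves 2 WT females. That fit called 20 of 17055 genes. Its edgeR adjusted p were 0.0723 for Col14a1, 0.0861 for Col4a4, 0.119 for Col6a5 and 0.162 for Col4a3. The log2 fold changes of these 4 chains in that fit were -1.63, 2.24, 4.10 and 2.06, against -1.58, 2.11, 4.15 and 2.21 with all libraries. Both settings were chosen after the data were seen, and the part of muscle RNA in these chains was not tested.

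Of the 3 main fibre chains, Col3a1 and Col1a1 were called lower in WT males and Col1a2 was not called. Col3a1 read 2726, 1373, 2199 and 1827 CPM in WT males and 4465, 4733, 3201 and 6487 CPM in WT females, without overlap (log2 ratio -1.36 ± 0.311 SE, adjusted p = 0.0300 by edgeR). Col1a1 read 1348, 1223, 1670 and 1259 CPM against 2563, 2870, 1536 and 3810 CPM, where WT female 3 lay within the male range (log2 ratio -1.12 ± 0.286 SE, adjusted p = 0.0403 by edgeR). Col1a2 read 1582, 1060, 1606 and 1376 CPM against 2049, 1993, 1520 and 2685 CPM and did not pass (edgeR adjusted p = 0.0792). Col6a3 was apart between the sexes, with 982, 1051, 555 and 1072 CPM in WT females (log2 ratio -1.42 ± 0.253 SE, adjusted p = 0.0158 by edgeR). Col6a1 read 1007, 944, 657 and 1085 CPM in WT females with WT female 3 within the male range (log2 ratio -0.86 ± 0.227 SE, adjusted p = 0.0434 by edgeR). In the 8 fits that each left out 1 library, the call of Col1a1 ended in 6 (adjusted p up to 0.106), of Col3a1 in 6 (up to 0.0939), of Col6a1 in 7 (up to 0.115) and of Col6a3 in 4 (up to 0.0643).

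The main basement membrane chains did not pass in this contrast. Col4a1 read 2978, 1298, 1711 and 1064 CPM in WT males and 2750, 2609, 2070 and 3230 CPM in WT females (edgeR adjusted p = 0.190), and Col4a2 2068, 1040, 1280 and 804 CPM against 1697, 1792, 1243 and 1970 CPM (edgeR adjusted p = 0.313). Col15a1 read 1328, 592, 720 and 463 CPM in WT males (edgeR adjusted p = 0.0654). For all 3 genes, WT male 1 read higher than the other WT males and within the female range, or above it for Col4a2. Without WT male 1 the count of this contrast was 26 of 42 (61.9%, against 31.1% of all genes in that fit), including Col4a1, Col4a2, Col15a1 and Col1a2, all 4 of them lower in males. Without WT male 3 there were 5, and without WT female 1, 2, 3 or 4 there were 5, 5, 7 and 4. Calls among all genes fell in these fits as well, from 2079 of 15865 with all libraries to 642 of 16003 without WT male 3. Leaving out a WT female gave at most 404 called genes, of 16494 tested without WT female 3. The fit without WT male 1 kept WT males 2, 3 and 4, where epididymis markers summed to 9553, 2400 and 848 CPM. In WT male 1 they summed to 0.345 CPM, and the part of that tissue in the calls was not tested. The adjusted p of Col4a3, Col4a4, Col6a5 and Col14a1 stayed at or under 0.0404 in each fit that left out 1 library.

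**Figure D4:**
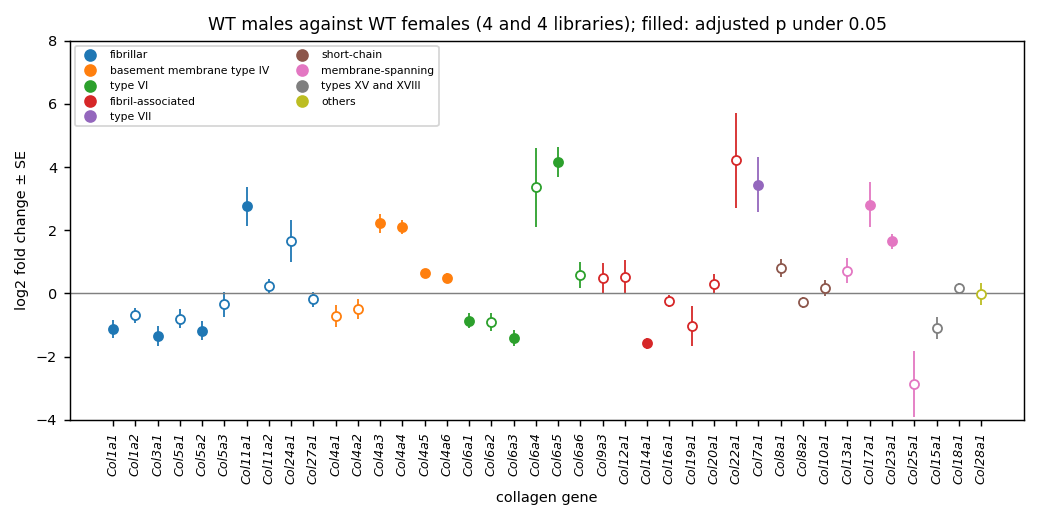
Points are log2 fold changes of collagen chains in WT males against WT females (4 and 4 libraries) with bars of 1 SE, coloured by class and filled where the edgeR adjusted p is under 0.05. Col6a5 stands highest among the filled points at 4.15, the 4 minor type IV chains lie above 0, and the filled fibrillar chains other than Col11a1 lie below 0.

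Whether a substitution acts differently in the sexes was tested as an interaction, the male effect minus the female effect. No chain was called for Y665F (41 tested, 0% of all genes called) or for Y665H (43 tested, 0.0178% of all genes called). By the unadjusted p under 0.05, 15 and 19 chains passed (36.6% and 44.2%, against 21.8% and 17.9% of all genes), and DESeq2 called 6 and 4 (14.6% and 9.30%, against 6.89% and 4.09% of all genes). For Col18a1, called lower in Y665H females, the edgeR adjusted p of the interaction with Y665H was 0.129. Both interactions depended on WT male 1: without it, 11 of 43 chains were called for Y665F (25.6%, against 9.84% of all genes) and 13 of 44 for Y665H (29.5%, against 10.7% of all genes). For Y665F, Col4a1, Col4a2, Col5a1, Col5a2, Col5a3, Col6a1, Col6a2 and Col15a1 had the more positive effect in males, and Col6a4, Col17a1 and Col24a1 the more negative one. For Y665H, Col4a1, Col4a2, Col5a2, Col5a3, Col6a1, Col6a2, Col15a1 and Col18a1 had the more positive effect in males, and Col6a4, Col7a1, Col17a1, Col24a1 and Col27a1 the more negative one. The interactions share their WT libraries. These calls came from fits that kept WT males 2, 3 and 4, with epididymis markers at 9553, 2400 and 848 CPM. WT male 1 stood at 0.345 CPM, and the part of that tissue in these calls was not tested.

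Several chains stood high in single libraries, and the genes named for this were chosen after their values were seen. In WT male 2, richest in epididymis markers and with epithelium markers at 1340 CPM, Col6a4 reached 136 CPM, Col7a1 59.5 CPM and Col17a1, a chain of epithelial attachment plaques, 29.3 CPM. WT male 1 read 1.38, 1.87 and 2.56 CPM for these genes, and WT females 1.46 to 5.65, 1.61 to 2.98 and 1.09 to 1.93 CPM. WT male 4 held the highest level of Col2a1, the cartilage fibre chain, at 14.8 CPM, and of Col22a1 at 23.3 CPM. No other library passed 0.639 CPM for Col2a1 or 1.22 CPM for Col22a1, and that library's cartilage and tendon markers summed to 67.0 CPM, above the 21.0 and 32.9 CPM of WT males 1 and 3 and below the sum of WT male 2. The cartilage chains Col9a1 and Col9a2 were highest at 0.781 CPM in WT male 4 and 0.671 CPM in WT male 2.

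Y665F female 3 and Y665F male 4, the 2 libraries highest in smooth muscle and pericyte markers, also stood apart. In Y665F female 3, whose epithelium markers summed to 1176 CPM, Col6a4 was at 188 CPM, Col12a1 at 387 CPM, Col11a1 at 19.1 CPM and the neuronal membrane-spanning chain Col25a1 at 37.2 CPM. The other 3 Y665F females read 1.61 to 37.2, 34.5 to 72.5, 0.237 to 3.29 and 0.148 to 6.38 CPM for these genes. Col19a1 and Col24a1 were also highest there, at 7.42 and 5.56 CPM, against at most 2.88 and 1.93 CPM in any other library. It was also the highest library of the series for Col1a1 (5947 CPM), Col1a2 (4884 CPM) and Col6a3 (1527 CPM). In Y665F male 4, Col23a1 was at 88.8 CPM and Col26a1 at 7.25 CPM, against at most 11.8 and 0.257 CPM in the other Y665F males. Markers and chains were high in the same libraries, and the part of those tissues in the collagen levels was not tested.

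**Figure D5:**
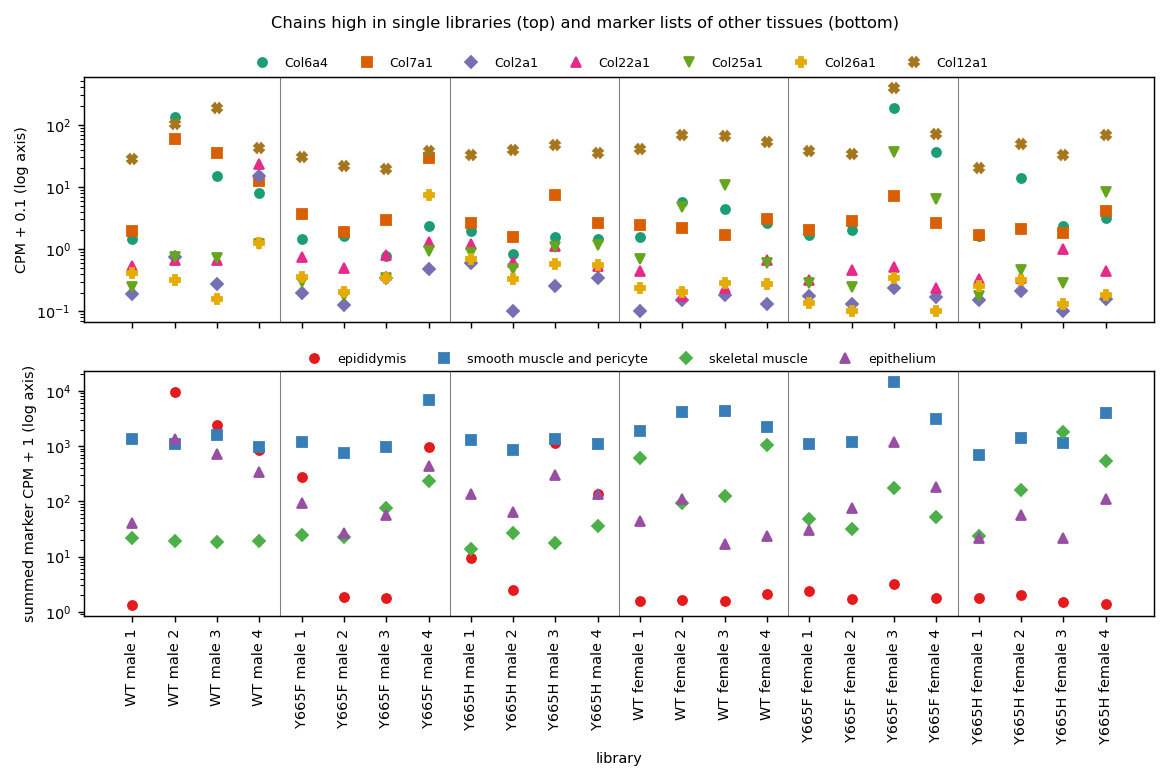
The top panel plots CPM + 0.1 of 7 collagen chains and the bottom panel the summed CPM + 1 of 4 marker lists, both on log axes, for each of the 24 libraries. Col6a4 and Col7a1 peak in WT male 2 together with the epididymis and epithelium markers, and Col6a4, Col12a1 and Col25a1 peak in Y665F female 3 together with the smooth muscle markers.

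Genes that process, remove or sense collagen were read from lists chosen alongside the chains. The counts below stand beside all-gene shares of 3.33% for Y665F and 3.34% for Y665H against WT females, 17.4% between the mutants in females, 1.03% between the mutants in males and 13.1% between the WT sexes. Calls over all genes moved with the fit. Leaving out 1 library gave 20 to 1269 for Y665H against WT females, where 516 were called with all libraries. Between the mutants in males it gave 10 to 220, against 164. With the replicate block these contrasts had 32 and 0 calls. Such refits are not given here for the single genes named below. Of 31 tested genes for maturation and crosslinking, 2 were called in Y665H against WT females (median log2 fold change -0.19, against -0.0046 over all genes). Plod2, which hydroxylates the lysines that later form crosslinks, rose from 55.0 ± 18.1 to 166 ± 84.9 CPM (SD, n = 4; log2 ratio 1.61 ± 0.351 SE, adjusted p = 0.0449 by edgeR). Lox, the oxidase that starts the crosslinks, fell from 63.8 ± 5.72 to 44.4 ± 7.37 CPM (log2 ratio -0.51 ± 0.112 SE, adjusted p = 0.0449 by edgeR). Between the mutants in females, P3h2, a prolyl 3-hydroxylase, and Loxl4 were lower in Y665H, at 8.94 ± 2.12 against 17.3 ± 3.25 CPM and 7.64 ± 0.932 against 12.8 ± 2.28 CPM (edgeR adjusted p = 0.0189 and 0.0250).

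Of the 15 to 17 tested breakdown genes, Timp4, an inhibitor of matrix proteases, was lower in Y665H females (28.9 ± 8.38 CPM) than in WT females (70.3 ± 22.3 CPM) and Y665F females (86.7 ± 30.1 CPM), with edgeR adjusted p of 0.0435 and 0.0184. Pepd, which splits the proline dipeptides left from collagen, was higher in Y665H females (125 ± 9.82 CPM) than in WT (88.6 ± 3.00 CPM) and Y665F females (93.1 ± 9.24 CPM; edgeR adjusted p = 0.0236 and 0.00923). Mmp3, a matrix protease, was lower in Y665F females (3.37 ± 0.902 CPM) than in WT (6.06 ± 0.623 CPM; edgeR adjusted p = 0.0404) and Y665H females (6.33 ± 2.16 CPM; edgeR adjusted p = 0.0311). In males 1 gene of this list was called, Mmp9, lower in Y665H than in Y665F (6.72 ± 1.97 against 19.9 ± 6.25 CPM; edgeR adjusted p = 0.0243). Of 8 receptors tested, Lair1, an inhibitory collagen receptor of immune cells, was higher in Y665F females (4.62 ± 0.548 CPM) than in WT (2.72 ± 0.226 CPM) and Y665H females (2.84 ± 0.310 CPM; edgeR adjusted p = 0.0472 and 0.0375), where T and B cell markers summed to 91.4 to 139 CPM in Y665F and at most 58.0 CPM in the other female groups. Ddr1, a receptor kinase for collagen, was lower in Y665H than in WT females (98.4 ± 12.7 against 133 ± 5.66 CPM; edgeR adjusted p = 0.0420).

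Among 28 other matrix genes, Bgn and Fbln5 were lower in Y665H than in WT females (146 ± 22.7 against 267 ± 70.1 CPM and 53.0 ± 5.03 against 74.2 ± 7.92 CPM; edgeR adjusted p = 0.0492 and 0.0437). Thbs1 and Thbs2, which help to organise the matrix, were lower in Y665H than in Y665F females (edgeR adjusted p = 0.00891 and 0.0172). Thbs1 was at 130 ± 35.4 against 710 ± 447 CPM and Thbs2 at 58.1 ± 15.7 against 151 ± 54.4 CPM, with a wide spread of Thbs1 in Y665F. In males, Postn and Lum, which bind collagen fibres, were higher in Y665H than in Y665F, with Lum at 68.4 ± 2.76 against 31.7 ± 10.4 CPM and Postn at 119 ± 12.3 against 66.0 ± 13.5 CPM (edgeR adjusted p = 0.0491 and 0.0440). In WT males against WT females, 11 of 32 maturation genes were called (1 higher, 10 lower), 7 of 16 breakdown genes (all lower), 2 of 8 receptors (both lower) and 9 of 28 other matrix genes (1 higher, 8 lower), against 7.15% of all genes called higher and 5.95% lower. Their medians were -0.54, -0.48, -0.66 and -0.67, against 0.04 over all genes. P4ha1, a subunit of the enzyme that hydroxylates collagen prolines, was at 34.3 ± 6.20 CPM in WT males and 61.7 ± 7.83 CPM in WT females (edgeR adjusted p = 0.0124). The collagen uptake receptor Mrc2 was at 51.3 ± 4.45 against 107 ± 16.8 CPM (edgeR adjusted p = 0.00402), and the receptor kinase Ddr2 at 164 ± 57.4 against 299 ± 53.0 CPM (edgeR adjusted p = 0.0450).

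Col4a3bp, the matching symbol that is no collagen, lay between 61.0 and 121 CPM in all 24 libraries and was called in none of the 7 contrasts between groups or the 2 interactions, with edgeR adjusted p from 0.244 to 0.992.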

How the data were processed

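Total RNA from adipose tissue was ribosome-depleted and sequenced as read pairs from stranded libraries, per the labels' protocols. The submitters' processing notes name FastQC 0.11.9, Trimmomatic 0.36, STAR, SAMtools 1.9, Picard 2.9.2, HTSeq 0.9.1 and the build mm10. The annotation and strand setting of the counting are not given in the sources used here, so reads of overlapping genes such as Col4a1 and Col4a2 may be shared or dropped. The deposited values are whole-number read counts per gene symbol, 1 file per library. From them, 5 entries that name no gene (24.8 to 39.7% of a library) were left out. The ribosomal gene Rn45s held 3.27 to 15.0% of gene counts.

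Groups and replicate numbers came from the titles. The test was edgeR's quasi-likelihood F test after TMM scaling and filterByExpr, with Benjamini-Hochberg adjustment over all genes (edgeR 4.0.16 with limma 3.58.1 in R 4.3.3). Called means an adjusted p under 0.05. The 7 contrasts each used the 8 libraries of their groups, and each interaction used 16. Alternatives were RLE factors, library totals, DESeq2 1.42.0, no filter, a fit over all 24 libraries, a replicate block and leaving out each library. The scripts were tested on simulated counts. Libraries of a group all differed by more than sampling noise (chi-square per degree of freedom of at least 16.7) and counted as separate. Same-numbered libraries of the 2 groups of a contrast had deviations that correlated at -0.398 to 0.711 over 28 pairs, of which 9 were above 0.1, so the numbers were not taken to pair libraries.

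Positions and transcript lengths are from GENCODE M21 on GRCm38, and promoter windows from RefSeq on GRCm38.p6. The members and lists were chosen with earlier results of these data known. By rule, values in each library are given for Col1a1, Col1a2, Col3a1, Col4a1, Col4a2, Col6a1, Col6a3 and Col15a1, for chains called between genotypes (the 3 with the smallest p where none was called), for the 4 called chains with the smallest p between the sexes, and for up to 4 called genes per other list and contrast. Python 3.11.15, pandas 2.3.3 and matplotlib 3.10.9 were used for summaries and figures.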

Additional observations from a re-analysis of the deposited data

Results flagged for a closer look

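Within each group of 4 libraries, 20 collagen genes were examined for a library far from the other 3 (gap to the nearest over the whole range above Dixon's critical value). This gave 12 of 120 combinations (10.0%). The genes share the same libraries, some were named for a small p in these data, and the rate over all genes was not measured. The count therefore does not measure an excess over chance. Of the 12, 4 were in Y665F female 3, the library highest in smooth muscle and pericyte markers (14570 CPM): Col12a1 at 387 CPM (others at most 72.5), Col7a1 at 7.18 CPM (others at most 2.69), Col8a1 at 29.2 CPM (others at most 10.3) and Col14a1 at 383 CPM (others at most 278).

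In Y665F male 4, also high in those markers (6872 CPM), Col7a1 stood at 28.9 CPM (others at most 3.63) and Col4a3 at 29.6 CPM (others at most 12.4). In WT male 2, with epididymis markers at 9553 CPM, Col6a4 stood at 136 CPM (others at most 15.0), and Col6a5 was the low library at 109 CPM (others at least 383). The part of these tissues was not tested.

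Y665H female 2 was the high library for Col15a1 at 1327 CPM (others at most 978), Col8a2 at 23.2 CPM (others at most 18.2) and Col6a4 at 13.9 CPM (others at most 3.12). In Y665H male 2, Col4a4 was low at 21.5 CPM (others at least 48.2).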

How the results depend on the processing

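With the DESeq2 Wald test the count of called chains was 5 for Y665F and 3 for Y665H against WT females, 3 and 1 against WT males, 7 between the mutants in females and 3 in males, and 6 and 4 for the interactions with Y665F and Y665H. In the fit over all 24 libraries it was 2 for Y665F against WT males (2261 of 17157 genes called) and 2 between the mutants in females (2163 of 17157). With the replicate block it was 0 for Y665H against WT females (32 of 15469 genes), 1 between the mutants in females (1583 of 15493) and 6 between the WT sexes (825 of 15865), and the block changed no other count by over 1.5 times. Without the 4 female libraries highest in skeletal muscle markers it was 0, 1 and 0 in those contrasts (2 of 15570, 1394 of 15866 and 20 of 17055 genes). Without WT males 2 and 3 it was 5 between the WT sexes (569 of 16239 genes). Both of these settings were chosen after the data were seen. Leaving out 1 library gave 0 to 3 called chains for Y665F against WT males, 0 to 3 for Y665H against WT females, 1 to 3 between the mutants in females, 4 to 26 between the WT sexes, 0 to 11 for the interaction with Y665F and 0 to 13 for that with Y665H. The upper ends of the first and of the last 3 ranges came from leaving out WT male 1. For Y665H against WT females, 3 were called without WT female 3, 2 without Y665H female 2 and 0 without WT female 1 or 4 or Y665H female 1, 3 or 4. Between the mutants in females 1 was called without Y665H female 3 or 4, and 2 without Y665H female 1 or Y665F female 1, 2 or 4. The mean collagen share of Y665F males was 1.96% with Rn45s left out of the totals. The cause of these changes was not tested. Scaling by library totals moved the median log2 fold change over all genes from 0.02 to 0.15 for Y665F against WT females and from 0.04 to 0.19 between the WT sexes. Of 444 refitted single-gene values, 349 kept direction and side of the threshold, 76 were no longer past it and 19 newly past it, and no direction reversed. Col2a1, Col9a1, Col9a2 and Col26a1 are limited by depth, at medians of 0.0489 to 0.204 CPM.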
